A study of Homo sapiens with 2 samples.

Results

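The 7 human APOBEC3 genes (APOBEC3A, APOBEC3B, APOBEC3C, APOBEC3D, APOBEC3F, APOBEC3G and APOBEC3H) and SAMHD1 were taken by symbol from a table of fragment counts, so the set holds 8 genes of the 26485 listed. The counts come from SK-LMS-1 and SK-UT-1, established human leiomyosarcoma lines, a tumour type with smooth muscle features. Both lines received the solvent DMSO and no other agent named in the labels, and each is represented by 1 total RNA library. Every difference below therefore compares 2 libraries, has no replicate check and carries no p-value. The SK-LMS-1 library held 6906280 counts and the SK-UT-1 library 7635850. Levels are in CPM (counts scaled to equal library size, here with edgeR's TMM factors), and levels of different genes are compared as CPM per kb of exon. Ranges in parentheses are exact 95% intervals. They cover counting error only and may be too narrow even for that, since no molecular identifiers that would tell amplified copies apart are named in the sources. In bulk RNA, fewer expressing cells and less RNA per cell cannot be told apart.

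APOBEC3 enzymes deaminate cytosine to uracil in single-stranded DNA. They are best known for blocking retroviruses and mobile elements by mutating their reverse transcripts, and some of them also mutate the DNA of tumour cells. SAMHD1 acts on the same step of a retrovirus by another route: it hydrolyses deoxynucleoside triphosphates (dNTPs), the building blocks of DNA, and it also cleaves the active form of cytarabine. It takes part in DNA end resection at breaks and stalled forks as well. Cyclin-dependent kinases phosphorylate SAMHD1 on a threonine in dividing cells, and inherited loss of SAMHD1 causes the interferon disease Aicardi-Goutieres syndrome.

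The 7 APOBEC3 genes lie side by side on the + strand of chromosome 22, over 146.5 kb (hg38, chr22:38957522-39104067). Each encodes 1 or 2 deaminase domains built around the motif in which a histidine and 2 cysteines hold a zinc ion and a glutamate takes part in catalysis. The GENCODE 29 reference transcripts held 11 such stretches, 1 each in APOBEC3A, APOBEC3C and APOBEC3H and 2 each in APOBEC3B, APOBEC3D, APOBEC3F and APOBEC3G. The stretch nearest the C-terminus of each protein, which belongs to the catalytic domain, is shown because its likeness between genes bears on how fragments could be assigned. Sequences run 5′ to 3′ on the coding strand, and capitals mark the codons of the histidine, the glutamate and the 2 cysteines.
APOBEC3A, chr22:38961420-38961530, + strand: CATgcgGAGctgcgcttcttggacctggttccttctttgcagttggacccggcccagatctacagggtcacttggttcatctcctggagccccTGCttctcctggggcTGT
APOBEC3B, second domain, chr22:38991365-38991475, + strand: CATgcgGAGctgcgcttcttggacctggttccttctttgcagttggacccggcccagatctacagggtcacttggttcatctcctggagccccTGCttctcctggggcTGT
APOBEC3C, chr22:39017787-39017891, + strand: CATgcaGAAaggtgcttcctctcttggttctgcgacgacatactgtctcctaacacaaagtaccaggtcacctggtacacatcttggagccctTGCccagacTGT
APOBEC3D, second domain, chr22:39031715-39031819, + strand: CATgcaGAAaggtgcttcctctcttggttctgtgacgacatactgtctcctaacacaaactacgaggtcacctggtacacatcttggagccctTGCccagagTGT
APOBEC3F, second domain, chr22:39052095-39052199, + strand: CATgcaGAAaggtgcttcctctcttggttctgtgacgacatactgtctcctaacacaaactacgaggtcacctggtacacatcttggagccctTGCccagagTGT
APOBEC3G, second domain, chr22:39086312-39086416, + strand: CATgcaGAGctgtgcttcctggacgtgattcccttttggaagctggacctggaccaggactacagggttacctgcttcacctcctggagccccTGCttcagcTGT
APOBEC3H, chr22:39101246-39101350, + strand: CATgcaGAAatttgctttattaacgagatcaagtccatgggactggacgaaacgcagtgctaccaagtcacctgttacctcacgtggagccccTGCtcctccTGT
The stretches of APOBEC3A and APOBEC3B were identical over 111 bases, and those of APOBEC3D and APOBEC3F over 105 bases. APOBEC3C differed from the APOBEC3D and APOBEC3F stretch at 4 positions, while APOBEC3G matched APOBEC3A and APOBEC3B at 77.5% of positions. The first domains of APOBEC3B and APOBEC3F also shared 1 stretch of 105 identical bases, so that 3 of the 55 pairs of stretches were identical.

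SAMHD1 lies on the − strand of chromosome 20 (hg38, chr20:36891824-36951843). The stretch around its threonine codon 592 is shown because this residue is the kinase target named above, in the sequence Thr-Pro-x-Lys that occurs 1 time in the protein. Capitals mark the threonine codon.
SAMHD1, chr20:36893007-36893060, − strand: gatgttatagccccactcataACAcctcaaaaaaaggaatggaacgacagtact

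APOBEC3 levels were higher in SK-UT-1 for all 5 family members that were measured, and the sizes fell over a wide range. APOBEC3D, APOBEC3G and APOBEC3F were 16-fold, 11.8-fold and 4.34-fold higher in SK-UT-1. APOBEC3C and APOBEC3B were 1.70-fold and 1.53-fold higher there, and SAMHD1 was at nearly the same level in both lines. A gene counts as measured where its higher library reaches 1 CPM, which 6 of the 8 genes did and APOBEC3A and APOBEC3H did not. Of the 6, 3 were past 2-fold toward SK-UT-1, against 18.3% of the 14324 measured genes of the table, and 0 toward SK-LMS-1, against 21.9%. In either direction that is 3 of 6, beside 40.2% of measured genes, and the other 3 were within 2-fold. The member count in both directions together is thus close to the share over all genes, and its 3 calls lie on 1 side. The same 3 genes were past 4-fold, which 7.3% of measured genes were in that direction. The median log2 ratio of SK-LMS-1 over SK-UT-1, negative where SK-UT-1 was higher, was -1.44 over the 6 genes and 0.01 over all measured genes.

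**Figure D1:**
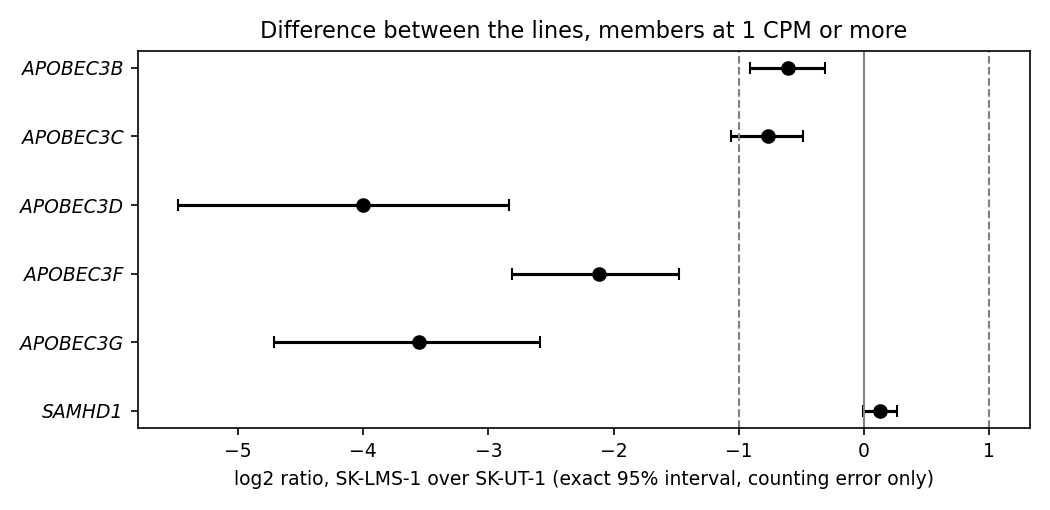
Log2 ratio of SK-LMS-1 over SK-UT-1 for the 6 measured genes, with the exact 95% interval of counting error (bars) and dashed lines at 2-fold in either direction. APOBEC3D, APOBEC3F and APOBEC3G lie beyond the left line with their whole intervals, while the APOBEC3B, APOBEC3C and SAMHD1 points lie between the lines.

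Among the genes with 1 deaminase domain, only APOBEC3C was measured. APOBEC3C, an enzyme found widely across tissues, had 150 counts (SK-LMS-1) and 314 counts (SK-UT-1), which gave 22.9 CPM (19.4 to 26.9) and 39.0 CPM (34.8 to 43.6). The intervals of the levels did not overlap, and SK-UT-1 stood 1.70-fold above SK-LMS-1 (1.40 to 2.08), an interval that crosses 2-fold. APOBEC3A, a strong DNA mutator known best from myeloid cells and keratinocytes, had 0 counts (SK-LMS-1) and 1 count (SK-UT-1). APOBEC3H, a retrovirus restriction factor that differs between people in stability, also had 0 counts (SK-LMS-1) and 1 count (SK-UT-1). The 1 count equals 0.124 CPM, and the intervals allow up to 0.563 CPM (SK-LMS-1) and 0.692 CPM (SK-UT-1) for either gene. Both genes were at or under the floor of 3 counts in both libraries, so no fold is given for them.

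The genes with 2 domains divided into APOBEC3B, which differed by under 2-fold, and the group of APOBEC3D, APOBEC3F and APOBEC3G. APOBEC3B, a mainly nuclear enzyme and a known source of mutations in tumours, had 144 counts (SK-LMS-1) and 270 counts (SK-UT-1), or 22 CPM (18.5 to 25.9) and 33.5 CPM (29.7 to 37.8). In SK-UT-1 it was 1.53-fold above its level in SK-LMS-1 (1.24 to 1.88), with the whole interval under 2-fold.

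APOBEC3D, APOBEC3F and APOBEC3G are mainly cytoplasmic enzymes that enter retrovirus particles and are targeted for degradation by the viral protein Vif. APOBEC3D had 6 counts (SK-LMS-1) and 118 counts (SK-UT-1), or 0.916 CPM (0.336 to 1.99) and 14.7 CPM (12.1 to 17.6). It was thus near the floor in SK-LMS-1 and plainly detected in SK-UT-1, a 16-fold difference (7.14 to 44.5). Of all measured genes, 1.80% had a ratio at least as far toward SK-UT-1.

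APOBEC3G, the family member in which antiviral deamination was first described, had 9 counts (SK-LMS-1) and 130 counts (SK-UT-1), or 1.37 CPM (0.628 to 2.61) and 16.2 CPM (13.5 to 19.2). In SK-UT-1 it was 11.8-fold above its level in SK-LMS-1 (6.01 to 26.3), and 2.37% of measured genes lay at least as far in that direction. As for APOBEC3D, the SK-LMS-1 library held only a few fragments of it.

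APOBEC3F, which often acts beside APOBEC3G on the same viruses, had 24 counts (SK-LMS-1) and 128 counts (SK-UT-1), or 3.66 CPM (2.35 to 5.45) and 15.9 CPM (13.3 to 18.9). In SK-UT-1 it was 4.34-fold above its level in SK-LMS-1 (2.79 to 7.02), with 6.53% of measured genes at least as far in that direction. The level intervals of the 2 libraries did not overlap for any of these 3 genes.

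SAMHD1 had 837 counts (SK-LMS-1) and 942 counts (SK-UT-1), or 128 CPM (119 to 137) and 117 CPM (110 to 125). The intervals overlapped. The ratio was 1.09-fold toward SK-LMS-1 (0.993 to 1.20), so that any difference larger than 1.20-fold in that direction lay outside the counting error. Scaling by library totals turned the sign of its log2 ratio, from 0.13 to -0.03, upper quartile scaling gave -0.01, and no direction is given for SAMHD1. Its CPM, not divided by exon length, exceeded that of 85.6% (SK-LMS-1) and 85.7% (SK-UT-1) of measured genes.

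Per kb of exon the order of the genes was nearly the same in both lines. In SK-LMS-1 the levels were 40.1 CPM per kb for SAMHD1, 20.6 for APOBEC3C, 14.3 for APOBEC3B, 0.749 for APOBEC3G, 0.728 for APOBEC3F and 0.366 for APOBEC3D. In SK-UT-1 they were 36.7 CPM per kb for SAMHD1, 35.2 for APOBEC3C, 21.8 for APOBEC3B, 8.81 for APOBEC3G, 5.86 for APOBEC3D and 3.16 for APOBEC3F. Neighbours in this order that could not be told apart within counting error were APOBEC3G and APOBEC3F in SK-LMS-1, with a ratio of 1.03 (0.421 to 2.29), and APOBEC3F and APOBEC3D there, with APOBEC3D at 0.502 times APOBEC3F (0.168 to 1.26). In SK-UT-1 this held for SAMHD1 and APOBEC3C, with a ratio of 1.04 (0.917 to 1.19).

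The other neighbours differed by more than counting error. In SK-LMS-1, SAMHD1 was 1.94 times APOBEC3C (1.63 to 2.32) and APOBEC3B was 19.1 times APOBEC3G (9.78 to 42.6). In SK-UT-1, APOBEC3B was 2.48 times APOBEC3G (2.0 to 3.08), APOBEC3G was 1.5 times APOBEC3D (1.16 to 1.95) and APOBEC3D was 1.85 times APOBEC3F (1.43 to 2.40). APOBEC3C exceeded APOBEC3B in both lines, 1.44-fold in SK-LMS-1 (1.14 to 1.83) and 1.61-fold in SK-UT-1 (1.37 to 1.90), a step that rests on the exon length used. The table gives APOBEC3C 1109 exon bases and APOBEC3F 5031, whereas the GENCODE 29 reference transcripts have 2818 and 2694. With transcript lengths APOBEC3B stood above APOBEC3C in both lines, at 14.3 and 8.12 CPM per kb in SK-LMS-1 and at 21.9 and 13.8 in SK-UT-1. With those lengths APOBEC3F also stood above APOBEC3G in SK-LMS-1, at 1.36 and 0.749 CPM per kb, and above APOBEC3D in SK-UT-1, at 5.90 and 5.80. No intervals were computed with transcript lengths. These orders of APOBEC3F rest on 24 and 9 counts (SK-LMS-1) and 128 and 118 counts (SK-UT-1), and may lie within counting error.

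**Figure D2:**
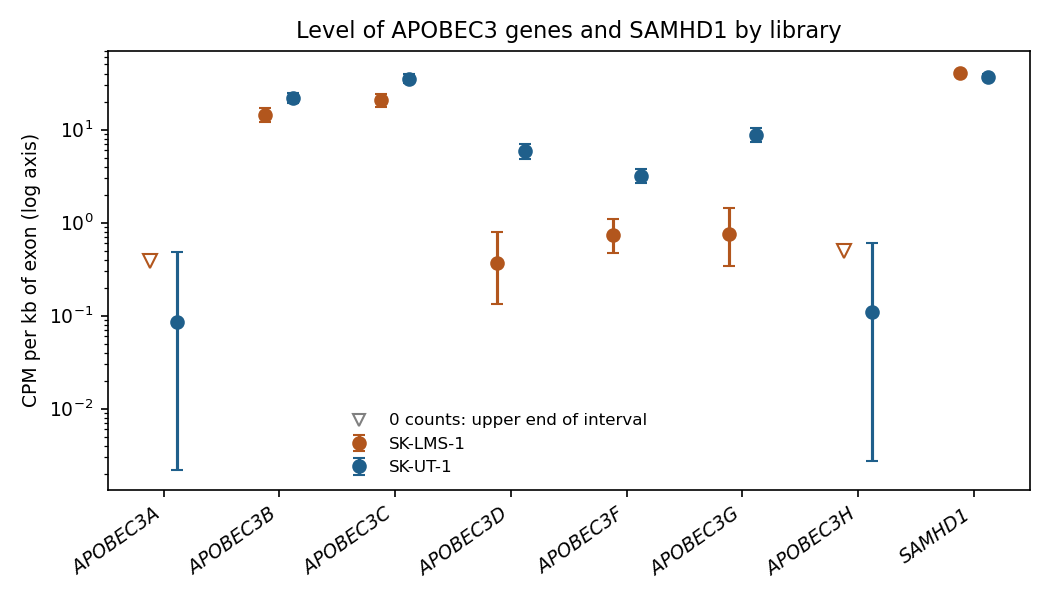
Level of each gene in CPM per kb of exon (log axis) in SK-LMS-1 and SK-UT-1, 1 library each, with exact 95% intervals of counting error (bars); open triangles mark the upper end of the interval where a library had 0 counts. SAMHD1, APOBEC3B and APOBEC3C sit high in both lines, APOBEC3D, APOBEC3F and APOBEC3G sit below them in both lines and lowest in SK-LMS-1, under 1 CPM per kb, and APOBEC3A and APOBEC3H are at 0 or 1 count in both.

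Summed over the 7 APOBEC3 genes there were 333 counts (SK-LMS-1) and 962 counts (SK-UT-1), or 50.8 and 119.5 CPM, a 2.35-fold higher sum in SK-UT-1 (2.07 to 2.67). APOBEC3B and APOBEC3C together gave 44.9 and 72.6 CPM, 1.62-fold more in SK-UT-1 (1.40 to 1.87). APOBEC3D, APOBEC3F and APOBEC3G together had 39 and 376 counts, or 5.95 and 46.7 CPM, 7.85-fold more in SK-UT-1 (5.64 to 11.2). By level per kb, APOBEC3B and APOBEC3C made up 95% (SK-LMS-1) and 76.0% (SK-UT-1) of the family's sum. APOBEC3D, APOBEC3F and APOBEC3G made up 5.01% and 23.8%. These shares rest on the table's exon lengths. With GENCODE transcript lengths APOBEC3B and APOBEC3C made up 90.1% and 63.3%, and APOBEC3D, APOBEC3F and APOBEC3G 9.91% and 36.3%, which is 1.98 and 1.53 times their shares above. Under both lengths the share of these 3 genes was larger in SK-UT-1.

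The ratios between lines were also set against each other for each of the 15 pairs of measured genes. For 13 pairs the interval of the ratio of ratios, not adjusted over the pairs, did not include 1. The 2 exceptions were APOBEC3B against APOBEC3C, at 0.896 (0.670 to 1.20), and APOBEC3D against APOBEC3G, at 1.36 (0.418 to 4.79). The shift of APOBEC3D toward SK-UT-1 was 3.67 times that of APOBEC3F (1.40 to 11.4), and that of APOBEC3F was 0.370 times that of APOBEC3G (0.146 to 0.865). Against SAMHD1, APOBEC3B shifted 1.67 times further toward SK-UT-1 (1.33 to 2.10) and APOBEC3C 1.86 times (1.49 to 2.32). These intervals treat the counts of each gene as separate, which shared fragments would break.

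At 50 bases, 6 of the 7 APOBEC3 genes shared windows with another family member, APOBEC3H being the exception, and APOBEC3C shared few, 32 with APOBEC3F and 24 with APOBEC3D. Of the windows of 50 bases in each reference transcript, 36.1% of those of APOBEC3B also occurred in transcripts of a gene elsewhere in the genome, as did 28.5% for APOBEC3A, 24.2% for APOBEC3F, 19.6% for APOBEC3D and 19.1% for APOBEC3G. The share was 1.30% for APOBEC3C, 0.705% for SAMHD1 and 0% for APOBEC3H. At 100 bases the share was 21.3% for APOBEC3B, 13.5% for APOBEC3F, 12.7% for APOBEC3A, 11.3% for APOBEC3G and 9.18% for APOBEC3D, and 0% for APOBEC3C. The coding sequences of APOBEC3D and APOBEC3F were identical at 87.1% of aligned positions. How fragments matching several places were handled was not given in the sources used here, so the values of APOBEC3A, APOBEC3B, APOBEC3D, APOBEC3F and APOBEC3G are uncertain to that extent, and that of APOBEC3C far less.

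**Figure D3:**
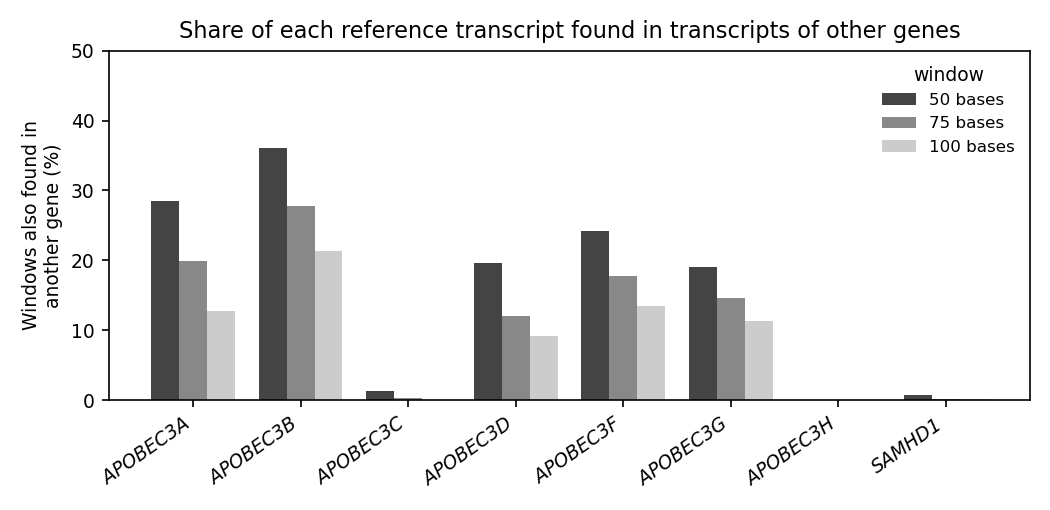
Share of the windows of 50, 75 and 100 bases in each gene's GENCODE 29 reference transcript that also occur in a transcript of a gene at another place (%). APOBEC3B has the highest share at each window length, from 36.1% at 50 bases to 21.3% at 100 bases, and APOBEC3H has 0%.

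A further row of the table, APOBEC3A_B, stands for the fusion gene left by a common deletion between APOBEC3A and APOBEC3B. It had 19 counts (SK-LMS-1) and 39 counts (SK-UT-1), or 2.90 and 4.85 CPM, 1.67-fold more in SK-UT-1 (0.943 to 3.06). All 1103 of its exon bases on chromosome 22 lie in exons of APOBEC3A (755 bases) or APOBEC3B (348 bases), on the same strand, and 1103 further bases lie on an alternate contig. The counting gave a fragment over shared exons to each gene, so the APOBEC3A counts cap the part of this row from APOBEC3A exons of chromosome 22 at 0 (SK-LMS-1) and 1 (SK-UT-1) fragments. Whether either line carries the deletion was not tested. On the opposite strand, APOBEC3B-AS1 overlaps APOBEC3B by 211 bases and had 2 counts in each library, and TLDC2 overlaps SAMHD1 by 205 bases and had 4 and 1 counts.

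The genes around the APOBEC3 block lay toward SK-UT-1 by their median, but did not all share that direction. Of 30 other genes within 500 kb, 24 were measured: 7 were past 2-fold toward SK-UT-1, 1 toward SK-LMS-1 and 16 within 2-fold, at a median log2 ratio of -0.54. That is 29.2% toward SK-UT-1 and 4.17% toward SK-LMS-1, beside 18.3% and 21.9% of all measured genes, whose median is 0.01. Without the APOBEC3A_B row, which shares its exons with members, 7 of 23 were past 2-fold toward SK-UT-1 and the median was -0.53. CBX6, a chromobox protein of Polycomb complexes and the nearest measured gene before the block, 85188 bases away, had 49.6 CPM (SK-LMS-1) and 108 CPM (SK-UT-1), 2.17-fold more in SK-UT-1 (1.91 to 2.48). CBX7, another Polycomb chromobox gene 26707 bases after the block, had 6.26 and 7.33 CPM, a ratio of 1.17 toward SK-UT-1 (0.773 to 1.79). NPTXR, a neuronal pentraxin receptor gene next to CBX6 that was picked after its value was seen, had 4.27 and 34.5 CPM, an 8.08-fold difference toward SK-UT-1 (5.47 to 12.4). The ratios of APOBEC3D, APOBEC3F and APOBEC3G were larger than those of CBX6 and CBX7, but the APOBEC3F ratio, at 4.34-fold, was smaller than that of NPTXR. Those of APOBEC3B and APOBEC3C were smaller than that of CBX6. On the log2 scale APOBEC3B (-0.61) and APOBEC3C (-0.77) lay near the median of the genes around the block. Copy number at this locus was not measured here, and its part in the differences was not tested.

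**Figure D4:**
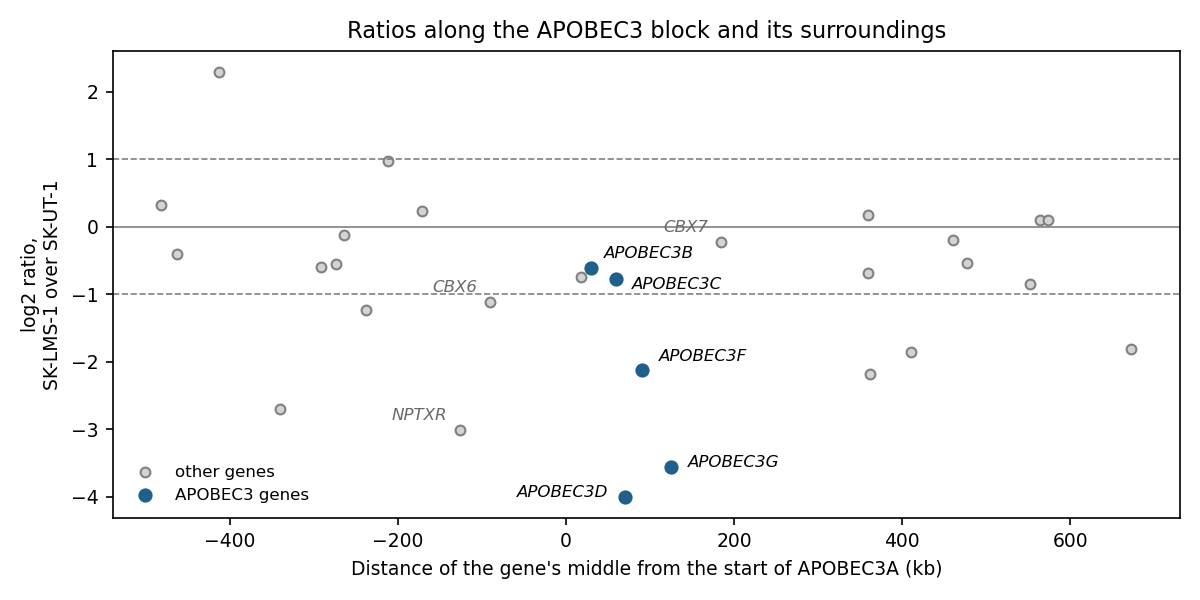
Log2 ratio of SK-LMS-1 over SK-UT-1 for the measured APOBEC3 genes and other measured genes within 500 kb of the block, against the distance of each gene's middle from the start of APOBEC3A (kb); dashed lines mark 2-fold. APOBEC3D and APOBEC3G are the lowest points, while CBX7 on one side and APOBEC3B on the other lie between the dashed lines.

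Around SAMHD1, 13 of 17 other genes within 500 kb were measured. Of these, 4 were past 2-fold toward SK-LMS-1, 0 toward SK-UT-1 and 9 within 2-fold, at a median log2 ratio of 0.79. Over all measured genes, 21.9% were past 2-fold toward SK-LMS-1 and 18.3% toward SK-UT-1, with the median at 0.01. The measured rows TGIF2-C20orf24 (241 and 161 counts) and C20orf24 (238 and 158 counts) overlap on the same strand. Fragments over exons that they share would enter both rows. SOGA1, 28140 bases away, had 195 CPM (SK-LMS-1) and 166 CPM (SK-UT-1), 1.18-fold more in SK-LMS-1 (1.09 to 1.27). RBL1, which encodes the pocket protein p107 and lies 44508 bases away on the other side, had 168 and 63.4 CPM, 2.65-fold more in SK-LMS-1 (2.38 to 2.95). The SAMHD1 ratio of 1.09 was closer to that of SOGA1 than to that of RBL1.

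Other APOBEC genes outside the APOBEC3 block were not detected. APOBEC1, which edits apolipoprotein B RNA, APOBEC2 and APOBEC4 had 0 counts in both libraries, under the floor of 0.458 CPM (SK-LMS-1) and 0.373 CPM (SK-UT-1). APOBEC3B and APOBEC3C were thus the leading APOBEC genes in SK-LMS-1, where APOBEC3F, APOBEC3G and APOBEC3D had 24, 9 and 6 counts. The same genes made up the measured APOBEC set in SK-UT-1, with APOBEC3G, APOBEC3D and APOBEC3F at higher levels than in SK-LMS-1.

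Genes that handle uracil in DNA, the product of APOBEC3 action, were mostly close between lines. This list and those below are described beside all measured genes, of which 18.3% were past 2-fold toward SK-UT-1, 21.9% toward SK-LMS-1 and 59.8% within 2-fold, with the median at 0.01. All 10 listed genes were measured: 1 was past 2-fold toward SK-UT-1, 0 toward SK-LMS-1 and 9 within 2-fold, at a median log2 ratio of -0.40. The 1 past 2-fold was TDG, a glycosylase that removes thymine or uracil opposite guanine, with 19.8 CPM (SK-LMS-1) and 54.5 CPM (SK-UT-1), 2.75-fold more in SK-UT-1 (2.26 to 3.37). UNG, the main uracil glycosylase, had 50.7 and 80.9 CPM, 1.60-fold more in SK-UT-1 (1.40 to 1.83), a ratio near that of APOBEC3B.

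Genes of dNTP supply and breakdown, the pool on which SAMHD1 acts, held 19 measured of 20. Of these 4 were past 2-fold toward SK-UT-1, 0 toward SK-LMS-1 and 15 within 2-fold, at a median log2 ratio of -0.17. SLC29A2, a nucleoside transporter, had 0.916 CPM (SK-LMS-1) and 9.82 CPM (SK-UT-1), 10.7-fold more in SK-UT-1 (4.71 to 30.1). TYMP, which splits thymidine, had 1.83 and 5.72 CPM, 3.12-fold more in SK-UT-1 (1.63 to 6.47), and DCTPP1, which breaks down dCTP, had 10.4 and 23.7 CPM, 2.29-fold more there (1.73 to 3.06). RRM2, the small subunit of ribonucleotide reductase, had 672 and 757 CPM, a 1.13-fold difference toward SK-UT-1 (1.08 to 1.17). DCK, the kinase that activates cytarabine and so works against SAMHD1, had 78.8 and 112 CPM, 1.43-fold more in SK-UT-1 (1.28 to 1.59).

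Kinases, cyclins and inhibitors that set the phosphorylation of SAMHD1 at threonine 592, with its partners in DNA end resection, had members that differed far more than SAMHD1. All 18 were measured: 5 were past 2-fold toward SK-LMS-1, 1 toward SK-UT-1 and 12 within 2-fold, at a median log2 ratio of -0.22. CDK6, a G1 kinase reported to act upstream of CDK2 in this phosphorylation, had 512 CPM (SK-LMS-1) and 19.9 CPM (SK-UT-1), 25.7-fold more in SK-LMS-1 (22 to 30.3). CDKN1A, the inhibitor p21, had 29.8 and 4.35 CPM, 6.84-fold more in SK-LMS-1 (4.76 to 10.1). MRE11A, the nuclease that SAMHD1 binds at stalled forks, had 123 and 54.9 CPM, 2.24-fold more in SK-LMS-1 (1.99 to 2.52).

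CCNE1, a cyclin partner of CDK2, went the other way, with 9.61 CPM (SK-LMS-1) and 42.2 CPM (SK-UT-1), 4.39-fold more in SK-UT-1 (3.35 to 5.84). The kinases and cyclin known to phosphorylate the residue directly differed less. CDK1 had 231 and 336 CPM, 1.46-fold more in SK-UT-1 (1.37 to 1.55). CDK2 had 69.9 and 90.7 CPM, 1.30-fold more there (1.15 to 1.46), and their partner CCNA2 had 219 and 280 CPM, 1.28-fold more there (1.20 to 1.37). RNA levels do not give the phosphorylation state.

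Of 8 other genes of Aicardi-Goutieres syndrome and the same nucleic acid pathways, all measured, 2 were past 2-fold toward SK-UT-1, 0 toward SK-LMS-1 and 6 within 2-fold, at a median log2 ratio of -0.09. IFIH1, the double-stranded RNA sensor MDA5, had 11.4 CPM (SK-LMS-1) and 68.6 CPM (SK-UT-1), 5.99-fold more in SK-UT-1 (4.70 to 7.73). ADAR, an adenosine deaminase that edits double-stranded RNA, had 259 and 526 CPM, 2.03-fold more in SK-UT-1 (1.92 to 2.15).

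Regulators known to act on APOBEC3B or on the cell cycle were mostly within 2-fold, as were 59.8% of all measured genes. In the list of B-MYB, FOXM1, DREAM and E2F factors, which control cell cycle genes and APOBEC3B in other tumour cells, all 20 were measured, 4 past 2-fold toward SK-UT-1, 2 toward SK-LMS-1 and 14 within 2-fold, at a median log2 ratio of -0.07. RB1, the retinoblastoma protein, had 147 CPM (SK-LMS-1) and 8.20 CPM (SK-UT-1), 17.9-fold more in SK-LMS-1 (13.9 to 23.3). MYBL2, which encodes B-MYB, had 44.1 and 149 CPM, 3.37-fold more in SK-UT-1 (2.96 to 3.85). RBBP4, a histone-binding DREAM subunit, had 181 and 547 CPM, 3.02-fold more there (2.83 to 3.23), and E2F2, an activating E2F, had 10.7 and 31.1 CPM, 2.91-fold more there (2.22 to 3.85).

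The list of NF-kB factors and their control, another known input to APOBEC3B, had its median on the other side, at a log2 ratio of 0.57. All 15 were measured, 5 past 2-fold toward SK-LMS-1, 0 toward SK-UT-1 and 10 within 2-fold. BIRC3, an inhibitor of apoptosis and NF-kB target, had 209 CPM (SK-LMS-1) and 26.5 CPM (SK-UT-1), 7.89-fold more in SK-LMS-1 (6.82 to 9.16). NFKBIZ, a nuclear modulator of NF-kB, had 76.5 and 12.7 CPM, 6.03-fold more in SK-LMS-1 (4.87 to 7.54), and TNFAIP3, a brake on the pathway, had 39.8 and 7.08 CPM, 5.62-fold more there (4.21 to 7.63). The part of these factors in the level of APOBEC3B was not tested.

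Interferon signalling, which induces several APOBEC3 genes in other cells, had 15 of 18 listed genes measured, and all 15 were within 2-fold, at a median log2 ratio of -0.12. The list holds mainly receptors, kinases and transcription factors, so it does not give the level of the genes that interferon induces. Those were not tested as a set. JAK1, a receptor kinase, had 414 CPM (SK-LMS-1) and 269 CPM (SK-UT-1), 1.54-fold more in SK-LMS-1 (1.46 to 1.63). Under scaling by library totals 2 genes of this list passed 2-fold toward SK-UT-1.

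Other factors that restrict retroviruses had members past 2-fold in both directions. Of 18 measured of 19, 5 were past 2-fold toward SK-UT-1, 4 toward SK-LMS-1 and 9 within 2-fold, at a median log2 ratio of -0.13. SERINC3, MARCH8 and SERINC5, membrane proteins that act on virus particles or their envelope, lay toward SK-LMS-1, by 5.08-fold (449 and 88.3 CPM; 4.68 to 5.52), 3.26-fold (64.4 and 19.8 CPM; 2.71 to 3.94) and 2.88-fold (55.6 and 19.3 CPM; 2.38 to 3.50).

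Toward SK-UT-1, IFITM1, which hinders the fusion of entering viruses, had 0.458 CPM from 3 counts (SK-LMS-1) and 6.09 CPM (SK-UT-1), a ratio of 13.3 (4.29 to 66.7). CNP, which limits virus assembly, had 18.5 and 78.2 CPM, 4.23-fold more in SK-UT-1 (3.48 to 5.18), and IFITM2 had 4.73 and 12.9 CPM, 2.73-fold more there (1.81 to 4.22). Members past 2-fold thus lay on both sides, as they did among all measured genes, with 18.3% toward SK-UT-1 and 21.9% toward SK-LMS-1.

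RNA editing enzymes and RNA granule proteins that bind APOBEC3 were close between lines: 14 of 15 were measured, 12 within 2-fold, 1 higher in each line, at a median log2 ratio of -0.06. ADAR, given above, was the 1 higher in SK-UT-1. HSPA1B, a heat shock chaperone, had 13.3 CPM (SK-LMS-1) and 1.12 CPM (SK-UT-1), 11.9-fold more in SK-LMS-1 (5.98 to 26.8), and is uncertain because HSPA1A is nearly identical to it.

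**Figure D5:**
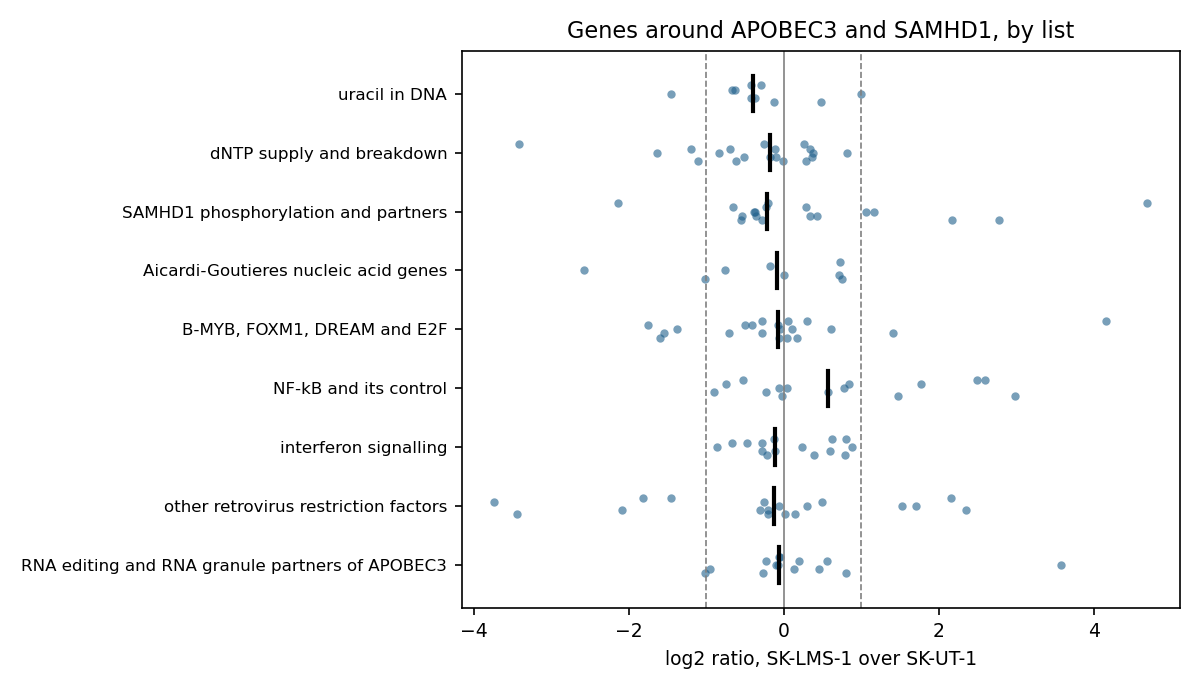
Log2 ratio of SK-LMS-1 over SK-UT-1 of every measured gene (points) in the 9 lists with measured genes, with the median of each list (black bar) and dashed lines at 2-fold; vertical scatter within a list has no meaning. The list of NF-kB factors has its median to the right, at 0.57, and the other medians lie between -0.40 and -0.06.

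Markers of blood cells, which express several APOBEC3 genes strongly, were set beside these values. Of 13 markers, 7 had 0 counts in both libraries, among them PTPRC, the pan-leukocyte phosphatase, CD2, MS4A1, LYZ, NKG7 and SPI1. Their summed level was 92.9 CPM (SK-LMS-1) and 24.6 CPM (SK-UT-1), of which CD68, a lysosomal protein also made outside macrophages, gave 91.9 and 14.5 CPM. Of the 3 measured markers, 2 were past 2-fold toward SK-UT-1 and 1 toward SK-LMS-1. CORO1A, an actin-binding protein strong in leukocytes, lay toward SK-UT-1, as did APOBEC3D, APOBEC3F and APOBEC3G. It had 0.458 CPM from 3 counts (SK-LMS-1) and 8.32 CPM (SK-UT-1). CD14 lay the same way, with 1 and 9 counts, and CD68 the other way. The part of such cells in the result was not tested beyond the markers at 0. Of 10 smooth muscle markers 8 were measured, 4 past 2-fold toward SK-LMS-1 and 3 toward SK-UT-1. CALD1, an actin-binding protein of contractile cells, had 749 and 343 CPM, whereas MYOCD, the master factor of smooth muscle, had 0 counts in both lines. DES, the muscle intermediate filament, had 1 and 26 counts, and MYH11, smooth muscle myosin, had 5 and 2 counts. TAGLN (transgelin) had 61.8 and 5.34 CPM, CNN1 (calponin) 9.77 and 2.48 CPM, and ACTG2, a smooth muscle actin, 39 and 0 counts. ACTA2, the other smooth muscle actin, had 10.5 and 54.0 CPM, SMTN (smoothelin) 216 and 109 CPM, and LMOD1 (leiomodin) 0.610 and 1.24 CPM. CALD1 and SMTN were thus well detected in both lines, the actins went opposite ways, and MYOCD and MYH11 were at 0 or near the floor in both.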

How the data were processed

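The authors deposited raw counts of fragments per gene, made with featureCounts 2.0.1 on hg38 per the file headers. Exons were combined by gene name, the strand option was 1, and fragments over exons of several genes counted for all of them. An aligner name was not given in the sources used here. Beside the counts the deposited table gives exon lengths, used as written, and 2 further columns of counts that match neither sample and were not used.

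TMM factors (0.949 for SK-LMS-1, 1.05 for SK-UT-1) came from edgeR 4.0.16 in R 4.3.3 over all 26485 genes, so 1 CPM equals 6.55 and 8.05 counts. Counts under 3 were raised to 3 for folds and medians. Intervals are exact 95% Poisson for levels and conditional binomial (Clopper-Pearson) for ratios (SciPy 1.17.1). With 1 library a line no test was possible. The computation was run on simulated Poisson counts with known fold changes, the model that the intervals assume. That run does not test variation beyond counting error or fragments that match several places. Sequences came from GENCODE 29 transcripts of GRCh38 (hg38), read by script, and all 65 exons of the members in the table shared an edge with a GENCODE exon.

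The genes, lists and rules were chosen with earlier results of these data known. Besides the members, the text names up to 3 genes per list and direction with the largest ratios at 2-fold and 5 CPM or more, or the highest gene where a list had none. It also names UNG, MYBL2, CDK1, CDK2, CCNA2, RRM2 and DCK, and the nearest measured gene on each side of each locus. Marker genes, other APOBEC genes at 0 counts and overlapping rows were named besides, some after their values were seen. Some genes of the lists are not reported here. Alternatives tried were scaling by DESeq2 1.42.0 size factors, upper quartile or library totals, and other filters, floors, fold rules and transcript lengths.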

Additional observations from a re-analysis of the deposited data

How the results depend on the processing

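The counts of 3 members past the fold toward SK-UT-1 and 0 toward SK-LMS-1 held under every scaling, filter, floor and fold rule tried. The floors and filters tried could not change them. No measured member had under 6 counts, and every one exceeded 5 CPM in its higher library. Without a filter, APOBEC3A and APOBEC3H were raised to 3 counts in both libraries and could not pass 2-fold. The log2 ratio of SAMHD1 went from 0.13 to -0.026 with library totals and to -0.01 with upper quartile scaling, which shift all log2 ratios by -0.15 and -0.13 against TMM. No other member ratio changed sign. With library totals 21.6% of measured genes were past 2-fold toward SK-UT-1 and 19.5% toward SK-LMS-1. Of 90 counts by list and direction, 82 stayed within 1.5 times of the reported value, and none of 45 list medians (0) changed sign. Of 36 ranks by level, 12 changed, with GENCODE transcript lengths (chosen after the data were seen) or with no length, and those lengths moved the share of APOBEC3D, APOBEC3F and APOBEC3G by 1.98 times in SK-LMS-1 and 1.53 times in SK-UT-1. Depth limits APOBEC3A and APOBEC3H, and APOBEC3D and APOBEC3G in SK-LMS-1 at 6 and 9 counts. No paired analysis was possible because each line has 1 library.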
